A study of Mus musculus with 16 samples.

Results

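The crystallins and small heat shock proteins described here are 9 mouse genes: the small heat shock protein genes Hspb1, Hspb2, Hspb3, Cryab, Hspb6, Hspb7 and Hspb8, and the beta-crystallin genes Cryba4 and Crybb1. All array probes whose RefSeq accession belongs to these genes were taken, which gave 11 probes (Hspb6 and Hspb7 have 2 each), out of 56605 probes on the array and 13725 genes that could be compared. All 9 genes passed the filter on dim probes, Cryba4 and Crybb1 only through groups other than DKO. The genes were chosen for their levels in these same arrays, so their values are given as a description. Where limma intervals or threshold passes are given for them, these describe the fit and are no independent test.

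RNA from the heart apex of 16 male C57Bl/6 mice was hybridised to 1-colour arrays, 1 array per mouse, with 4 mice in each of 4 groups. DKO mice were homozygous for floxed AKT1 and floxed AKT2, AKT1 KO mice for floxed AKT1 alone, AKT2 KO mice for floxed AKT2 alone, and control mice carried no floxed allele. Mice of all 4 groups, control included, were heterozygous for MHC-mercremer, a tamoxifen-inducible Cre driven by the cardiomyocyte alpha-myosin heavy chain promoter, so other heart cells keep their AKT genes by design. Each mouse received 500 µg of 4-OH-tamoxifen a day in 5 injections at 3 months of age, with the heart harvested 21 days later. The sample titles call the hearts untreated; their treatment protocol names the tamoxifen and adds that no others, for example to alter cardiac function, were given.

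Small heat shock proteins are chaperones that work without ATP: they hold partly unfolded proteins, and in muscle they sit on Z-discs and intermediate filaments. They share the alpha-crystallin domain, named after the lens protein to which CRYAB belongs, and HSPB1, HSPB6 and CRYAB are regulated by phosphorylation. Beta-crystallins are unrelated in sequence to this family. They are structural proteins of the lens fibre cell, and the heart is not a tissue they are known for.

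The RefSeq promoter windows of the 4 genes whose DKO level lay farthest from control are shown because they were searched for binding motifs of stress and lens factors. Each runs from 250 bases before to 50 bases after the annotated start in GRCm38.p6, read 5′ to 3′ on the strand of the gene. Capitals mark matches to GAANNTTC or TTCNNGAA (the core of the heat shock element bound by HSF1), GTAAACA (FoxO factors, which AKT phosphorylates), TGCTGAC (MAF factors, which drive lens crystallin genes) or TATAAA (the core promoter element of that name), searched on both strands.
Cryba4, chr5:112252469-112252768, minus strand: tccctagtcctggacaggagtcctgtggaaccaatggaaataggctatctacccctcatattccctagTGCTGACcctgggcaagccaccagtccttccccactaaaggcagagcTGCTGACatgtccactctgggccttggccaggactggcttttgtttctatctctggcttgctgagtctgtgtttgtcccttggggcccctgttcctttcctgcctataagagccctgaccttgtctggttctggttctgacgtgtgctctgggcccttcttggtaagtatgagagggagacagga
Crybb1, chr5:112255570-112255869, plus strand: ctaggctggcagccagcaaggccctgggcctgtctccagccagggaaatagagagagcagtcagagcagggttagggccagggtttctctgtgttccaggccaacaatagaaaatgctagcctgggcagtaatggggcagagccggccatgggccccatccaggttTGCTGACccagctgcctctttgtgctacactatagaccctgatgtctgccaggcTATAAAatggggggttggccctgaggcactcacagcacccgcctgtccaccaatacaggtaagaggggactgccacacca
Hspb1, chr5:135887669-135887968, plus strand: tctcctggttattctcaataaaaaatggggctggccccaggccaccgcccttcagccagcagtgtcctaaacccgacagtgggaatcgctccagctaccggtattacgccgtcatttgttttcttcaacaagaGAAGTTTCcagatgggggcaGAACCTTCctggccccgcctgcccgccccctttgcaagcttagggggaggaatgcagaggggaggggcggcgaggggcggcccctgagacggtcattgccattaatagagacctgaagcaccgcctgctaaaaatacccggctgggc
Hspb3, chr13:113663627-113663926, minus strand: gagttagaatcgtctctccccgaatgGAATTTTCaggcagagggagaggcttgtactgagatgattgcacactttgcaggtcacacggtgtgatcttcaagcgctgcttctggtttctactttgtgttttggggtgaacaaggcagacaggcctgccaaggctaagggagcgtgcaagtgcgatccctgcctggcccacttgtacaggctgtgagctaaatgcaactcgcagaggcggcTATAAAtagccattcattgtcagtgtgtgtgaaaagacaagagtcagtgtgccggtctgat

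A promoter window was found for 7 of the 9 genes, 8 windows in all because Hspb6 has 2. Positions are counted from the start, with bases before it negative. Cryba4 held TGCTGAC at -182 and -135, and Crybb1 held it at -84, with TATAAA at -30. Across all 32851 mouse windows TGCTGAC occurred in 4.67% and TATAAA in 13.6%. Hspb1 held GAANNTTC at -117 and -97, and Hspb3 held it at -224 with TATAAA at -11. GAANNTTC also lay at -120 in the second Hspb6 window, with TATAAA at -29, and at 2 in that of Hspb8, against 7.86% of all windows. No window of the 7 genes held GTAAACA (3.65% of all windows) or TTCNNGAA (8.52%), and Hspb7 and the first Hspb6 window held none of the motifs. These are letter matches and not sites known to be bound.

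Levels below are log2 of the background-subtracted intensity relative to the 75th percentile of the array, so 0 is the 75th percentile and 1 unit is a doubling. They can be compared between groups for 1 gene but not between genes. The DKO hearts stood apart on the main axis of variation over all genes (-78.61 to -42.52, against 12.29 to 22.94 in the other 12 hearts), with DKO replicate 3 the farthest out. Within groups the SD of a typical gene (the median over genes) was 0.248 for DKO, 0.162 for AKT1 KO, 0.114 for AKT2 KO and 0.09 for control hearts. The Akt2 probe gave 2.91 ± 0.10 for DKO, 4.78 ± 0.18 for AKT1 KO, 2.54 ± 0.09 for AKT2 KO and 4.91 ± 0.06 for control hearts (SD, n = 4 each). The Akt1 probe gave 5.11 ± 0.08 for DKO, 5.23 ± 0.26 for AKT1 KO, 5.17 ± 0.10 for AKT2 KO and 5.13 ± 0.03 for control hearts; where it lies relative to the floxed exons is not known, so it does not check the AKT1 label. Of 10 cardiomyocyte markers 9 fell in DKO hearts (limma, adjusted p under 0.05), against 21.2% of all genes. The summed linear level of the 10 spanned 2939 to 3596 in DKO and 4080 to 4709 in control hearts. All 6 fibroblast markers rose, against 24.4% of all genes, with a summed level of 255.4 to 309.2 in DKO and 163.1 to 174.5 in control hearts. In whole tissue, fewer cells of a type and less RNA per cell cannot be told apart, and the part of this shift in the values that follow was not tested.

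The beta-crystallin genes showed the widest differences of the 9. Cryba4, on chromosome 5 at 112246492 to 112263625, had levels of -3.81, -3.94, -4.04 and -3.46 in DKO hearts. It had -0.45, -0.32, -0.06 and -0.32 in AKT1 KO hearts and 0.09, -0.65, -0.33 and -0.64 in AKT2 KO hearts, against 0.04, 0.06, -0.16 and -0.20 in control hearts. All 4 DKO hearts lay far below the other 12, while both single knockouts overlapped control. The DKO mean was lower than control by a log2 difference of -3.75 (SE 0.16, 95% interval -4.09 to -3.40; -3.93 within slide 1 and -3.57 within slide 2), and lower than AKT1 KO and AKT2 KO by differences of -3.52 and -3.43 (SE 0.16 each). The probe lay well above background on 2 of 4 DKO arrays and on all 12 others, so the size is uncertain, and under normexp background correction the DKO minus control difference was -2.54. Those 2 DKO arrays were on slide 1, so the slide 2 value rests on DKO arrays where the probe was not well above background. The normexp value lies outside the 95% interval, which does not cover this uncertainty.

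Crybb1, whose annotated span overlaps that of Cryba4 by 9063 bases, was likewise lowest in DKO hearts. Its levels were -6.54, -6.41, -6.41 and -5.30 in DKO hearts, -2.25, -2.28, -1.72 and -2.04 in AKT1 KO hearts and -1.86, -2.71, -2.50 and -2.32 in AKT2 KO hearts, against -1.95, -2.10, -2.29 and -2.11 in control hearts. No DKO array had Crybb1 well above background, and all 12 others did, so the DKO values are only an upper limit. For a rough size, the DKO arrays were raised to their lowest signal that was well above background. Crybb1 was then 4.06-fold lower in DKO than in control hearts, 4.18-fold lower than in AKT1 KO and 3.45-fold lower than in AKT2 KO hearts. These are not strict minima. Under normexp background correction, which adds an offset, the DKO minus control difference was -1.52 on the log2 scale. Background-subtracted intensities show how dim the probe was: 8.046 to 16.65 in DKO hearts and 138 to 167.9 in control hearts.

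**Figure D1:**
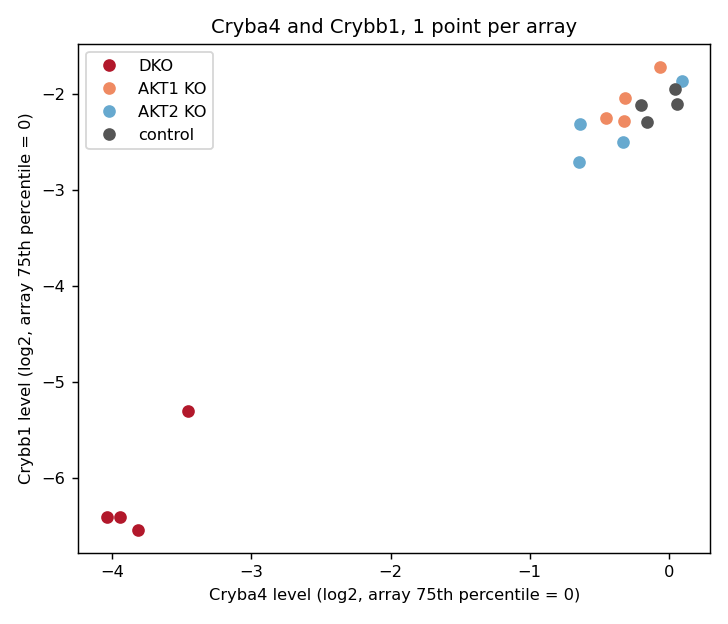
Each point is 1 array, with the Cryba4 level on the horizontal axis and the Crybb1 level on the vertical axis (both log2, array 75th percentile = 0), coloured by group. The 4 DKO arrays lie at the lower left, with Cryba4 at or below -3.46 and Crybb1 at or below -5.30, apart from the other 12; Crybb1 is below background on the DKO arrays.

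Most lens fibre markers were at or near background in all groups. Of 8 lens fibre markers, Cryaa, Crybb2 and Mip were well above background on 0 of 16 arrays, Lim2 and Lgsn on 1 each, Bfsp1 on 4, Crygd on 12 and Bfsp2 on 16. Their summed linear level spanned 0.41 to 0.88 in DKO hearts and 0.54 to 0.63 in control hearts. Only 2 of them could be tested, and neither passed in any knockout. Crybb3, another beta-crystallin gene in the same megabase of chromosome 5, was named after its value was seen. Its DKO minus control difference was 0.22 (SE 0.15, adjusted p = 0.233 by limma). The Crybb3 probe was dim, with a mean of -3.27 in DKO and -3.49 in control hearts. It lay well above background on 3 of 4 arrays in each of these groups, so a fall could hardly have been seen.

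Hspb1, also called Hsp25, caps actin filaments and binds unfolded proteins, and it was higher in DKO hearts. Its levels were 7.96, 7.99, 8.24 and 8.31 in DKO hearts, 7.33, 7.73, 7.66 and 7.48 in AKT1 KO hearts and 6.94, 6.91, 7.15 and 7.34 in AKT2 KO hearts, against 7.29, 7.29, 7.47 and 7.43 in control hearts. Every DKO heart lay above all 12 others, AKT1 KO and AKT2 KO overlapped control, and AKT2 KO lay lowest on average. The DKO minus control difference was 0.75 (SE 0.12, 95% interval 0.50 to 1.01), a 1.685-fold higher level. DKO exceeded AKT1 KO by 0.57 and AKT2 KO by 1.04 (SE 0.12 each). The AKT2 KO minus control difference was -0.28 (95% interval -0.54 to -0.03), while that of AKT1 KO was 0.18 (-0.07 to 0.43), with 0.40 within slide 1 and -0.04 within slide 2. The DKO minus control difference was 0.68 and 0.83 within the 2 slides. The GAANNTTC matches printed above lie in the promoter window of this gene, and Hsf1, whose product binds that element, had a DKO minus control difference of -0.38 (SE 0.19, adjusted p = 0.12 by limma). Without DKO replicate 3 the Hsf1 difference was -0.10 (adjusted p = 0.171).

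Hspb3 is a small muscle protein that forms a complex with HSPB2. It had levels of 1.22, 1.32, 0.91 and 1.48 in DKO hearts, 2.68, 2.82, 2.60 and 2.60 in AKT1 KO hearts and 2.44, 2.20, 2.46 and 2.14 in AKT2 KO hearts, against 2.60, 2.47, 2.35 and 2.64 in control hearts. All DKO hearts lay below the other 12. The DKO minus control difference was -1.28 (SE 0.12, 95% interval -1.54 to -1.03), which is 41.1% of the control level, with -1.26 within slide 1 and -1.31 within slide 2. AKT1 KO (0.16, 95% interval -0.09 to 0.41) and AKT2 KO (-0.21, -0.46 to 0.05) lay on opposite sides of control, each overlapping it. For its partner Hspb2 the DKO minus control difference was 0.23 (SE 0.14, 95% interval -0.06 to 0.53).

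Hspb8, also called Hsp22, works with the co-chaperone BAG3 to send damaged filament proteins to autophagy. Its levels were 4.72, 4.75, 5.25 and 4.60 in DKO hearts, 4.93, 5.21, 5.15 and 5.16 in AKT1 KO hearts and 5.17, 5.23, 5.28 and 5.21 in AKT2 KO hearts, against 5.37, 5.28, 5.28 and 5.40 in control hearts. The order of the means ran from DKO through AKT1 KO and AKT2 KO to control. DKO replicate 3, at 5.25, reached the levels of the single knockouts but not those of control. The DKO minus control difference was -0.50 (SE 0.11, 95% interval -0.75 to -0.26), or 70.6% of control, and was -0.64 without DKO replicate 3. Within slide 2 it was -0.42 and no longer passed the threshold. The AKT1 KO minus control difference of -0.22 (95% interval -0.46 to 0.03) had no overlap between the groups, and that of AKT2 KO was -0.11 (-0.35 to 0.14). Both intervals use a variance pooled over all 4 groups. The Hspb8 SD was 0.29 for DKO, 0.12 for AKT1 KO, 0.05 for AKT2 KO and 0.06 for control hearts. The DKO spread therefore widens both intervals, and their reaching 0 does not show that Hspb8 was unchanged. The same pooling narrows the DKO minus control interval, which is tighter than the DKO and control spreads alone would give.

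The other genes of the HSPB8 and BAG3 complex are given for comparison. Bag3 was at 6.08 ± 0.15 in DKO hearts and 5.82 ± 0.04 in control hearts (SD, n = 4 each), a difference of 0.26 (SE 0.09) with an adjusted p = 0.0328 by limma. That call was lost under quantile normalization (adjusted p = 0.149) and in the authors' deposited table (0.146), without DKO replicate 3 (adjusted p = 0.0728) or 4 (0.0505), and without control replicate 1 (0.0732), 2 (0.0652) or 3 (0.066). It was also lost under normexp background correction (0.12), without a filter on dim probes (0.0761), and within slide 1 (0.15) or 2 (0.216). Hspa8, the constitutive HSP70, differed by 0.07 (SE 0.11, adjusted p = 0.67), and Stub1, the ubiquitin ligase of the complex, by 0.002 (SE 0.09, adjusted p = 0.987).

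Cryab, the alpha-B crystallin and a desmin chaperone, had levels of 8.47, 8.57, 8.92 and 8.76 in DKO hearts, 8.34, 8.76, 8.96 and 8.67 in AKT1 KO hearts and 8.55, 8.39, 8.50 and 8.68 in AKT2 KO hearts, against 8.66, 8.62, 8.54 and 8.65 in control hearts. All groups overlapped, and the DKO minus control difference was 0.06 (95% interval -0.20 to 0.32). The spread was wider in DKO (SD 0.20) and AKT1 KO (SD 0.26) than in control hearts (SD 0.05). This comparison depended on the scaling: the difference was 0.38 after quantile normalization and 0.37 in the authors' deposited table, both past the limma threshold, 0.24 within slide 2, -0.12 within slide 1 and -0.02 without DKO replicate 3. No direction is therefore given for Cryab.

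Hspb7, a cardiac protein that binds filamin C, behaved likewise. Its brighter probe read 8.92, 8.94, 9.39 and 9.08 in DKO hearts, against 9.13, 8.95, 8.95 and 9.07 in control hearts, and spanned 8.71 to 9.21 in AKT1 KO and 8.89 to 9.15 in AKT2 KO hearts. The DKO minus control difference was 0.06 (95% interval -0.19 to 0.31), 0.32 after quantile normalization and in the authors' deposited table (past the threshold in both), and -0.04 without DKO replicate 3. The second probe gave 0.41 (SE 0.19, 95% interval 0.00 to 0.82), with DKO replicate 3 at 6.81 and the other DKO hearts at 5.71 to 5.84, against 5.56 to 5.66 in control hearts. Its SD was 0.53 for DKO and 0.04 for control hearts, so the variance pooled over all groups makes this interval too narrow. The probes disagreed in size, by 0.35 with all arrays and by 0.19 without DKO replicate 3, where the second probe gave 0.15.

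Hspb2, which lies next to Cryab with spans that overlap by 1283 bases on chromosome 9, had 4.97, 5.05, 5.72 and 5.15 in DKO hearts, against 5.04, 5.03, 4.88 and 5.02 in control hearts. It spanned 4.68 to 5.06 in AKT1 KO and 4.73 to 5.04 in AKT2 KO hearts. Only DKO replicates 2, 3 and 4 exceeded every control heart, and without replicate 3 the DKO minus control difference was 0.07. Hspb6, also called Hsp20, a target of protein kinase A, had 7.28, 7.07, 7.45 and 7.21 in DKO hearts, 6.71, 7.48, 7.50 and 7.25 in AKT1 KO hearts and 7.60, 7.49, 7.71 and 7.72 in AKT2 KO hearts, against 7.53, 7.54, 7.46 and 7.62 in control hearts. All DKO values of Hspb6 lay below all control values, with a difference of -0.29 (95% interval -0.59 to 0.02) on the brighter probe and -0.31 (-0.68 to 0.05) on the other. The pooled variance includes the wide AKT1 KO spread (SD 0.37 on the brighter probe, against 0.16 in DKO hearts), which widens these intervals. The DKO minus control difference passed the threshold when AKT1 KO replicate 1 was left out, with array weights (-0.34), with only DKO and control in the fit, and within slide 1 (-0.36). The AKT1 KO minus control difference was -0.30 (-0.61 to 0.00), and -0.13 without AKT1 KO replicate 1, whose level of 6.71 was the lowest of the 16. Hspb6 lies 2.91 Mb from Akt2 on chromosome 7, and the AKT2 KO minus control difference was 0.09 (-0.22 to 0.40).

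**Figure D2:**
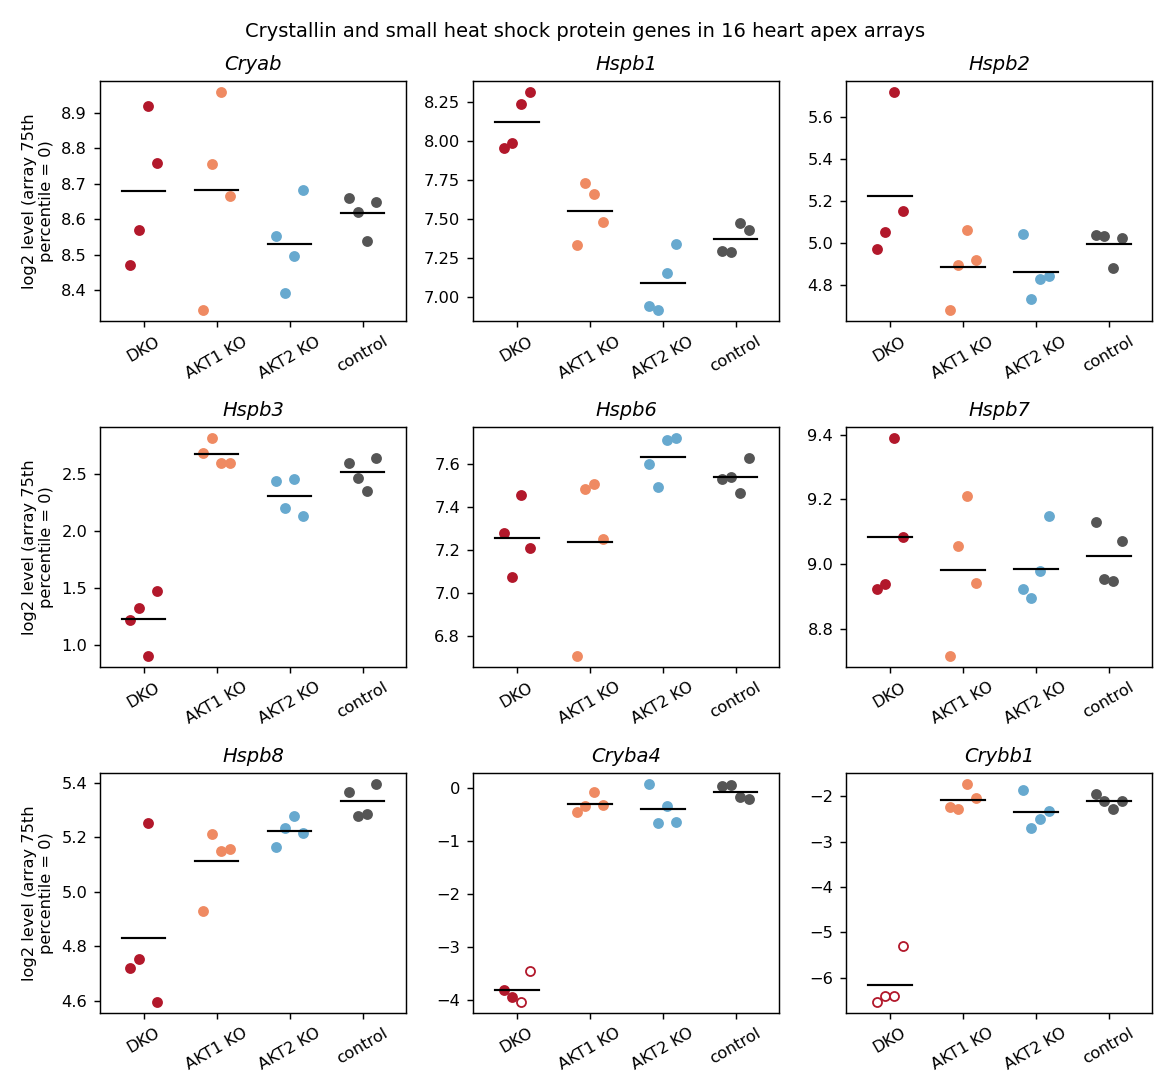
Levels of the 9 genes (brighter probe where there are 2) on each of the 16 arrays, as log2 relative to the 75th percentile of the array. Within a group the points run from replicate 1 to 4, the line is the group mean, and open points are arrays where the probe was not well above background; vertical scales differ between genes. The DKO points of Cryba4, Crybb1 and Hspb3 lie below, and those of Hspb1 above, all other points.

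Counted over the 9 genes, the DKO minus control difference passed the threshold of the fit (limma, adjusted p under 0.05 over all genes) for 5, Hspb1 higher and Hspb3, Hspb8, Cryba4 and Crybb1 lower. Of all 13725 genes 45.6% passed it, 24.4% higher and 21.2% lower. The DKO and control hearts did not overlap for 1 gene above (Hspb1) and 5 below (Hspb3, Hspb6, Hspb8, Cryba4 and Crybb1), against 23.8% above, 20.6% below and 44.4% in either direction of all genes. The median DKO minus control difference was -0.29 over the 9 genes and 0.02 over all genes. Cryba4 and Crybb1 passed the filter on dim probes only through the groups where they were higher. They were well above background on 2 and 0 of 4 DKO arrays. Since the genes were picked on this comparison, nothing is read from these counts. Without DKO replicate 3 the count of 5 was the same. Under quantile normalization and in the authors' deposited table the count was 7, with Cryab and Hspb7 added on the higher side, and it was 3 with a stricter filter, which leaves out Cryba4 and Crybb1.

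**Figure D3:**
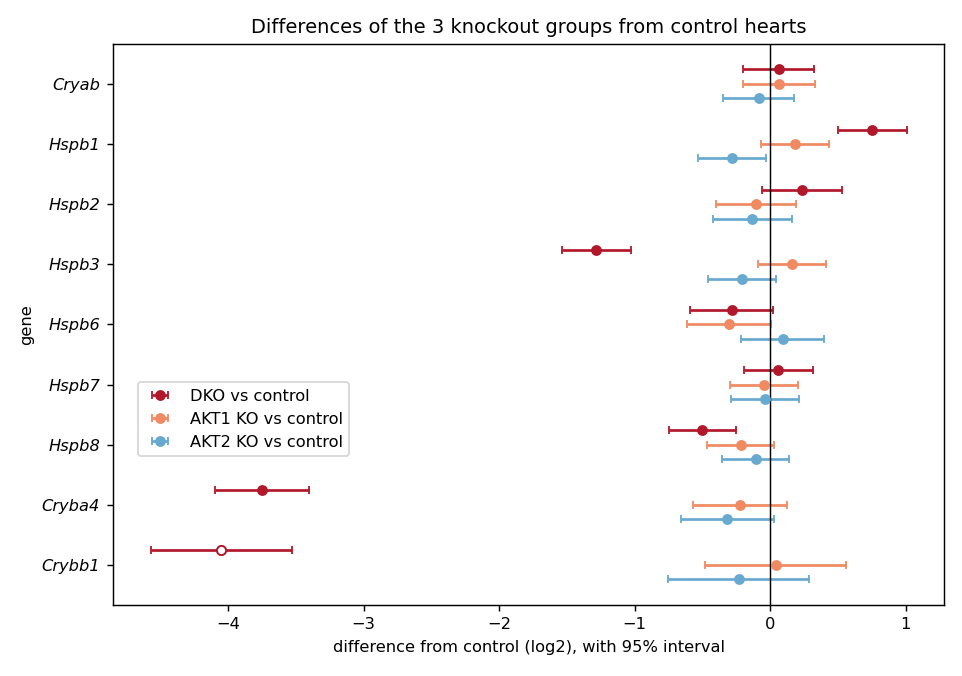
Log2 difference of DKO, AKT1 KO and AKT2 KO hearts from control hearts for the 9 genes, with the 95% interval of the limma fit as the bar. Each interval uses a variance pooled over all groups, whose spreads differ. The DKO intervals of Hspb1, Hspb3, Hspb8, Cryba4 and Crybb1 leave out 0, as does the AKT2 KO interval of Hspb1 (-0.28); the open point marks Crybb1, whose DKO value is below background and so is no measured size.

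In the single knockouts 0 of the 9 genes passed the threshold. Over all genes 0.794% passed in AKT1 KO and 0.131% in AKT2 KO hearts, and 1017 and 443 genes had an unadjusted p under 0.05. Hspb8 alone did not overlap between AKT1 KO and control hearts, 1 of 9 against 9.19% of all genes. None of the 9 was free of overlap between AKT2 KO and control hearts, against 7.62% of all genes. The median difference from control was -0.04 in AKT1 KO and -0.13 in AKT2 KO hearts over the 9 genes, and -0.03 and -0.02 over all genes. Cryba4 had the widest DKO difference among the members with any DKO array well above background. Its intervals were -0.57 to 0.12 in AKT1 KO and -0.66 to 0.03 in AKT2 KO hearts.

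**Figure D4:**
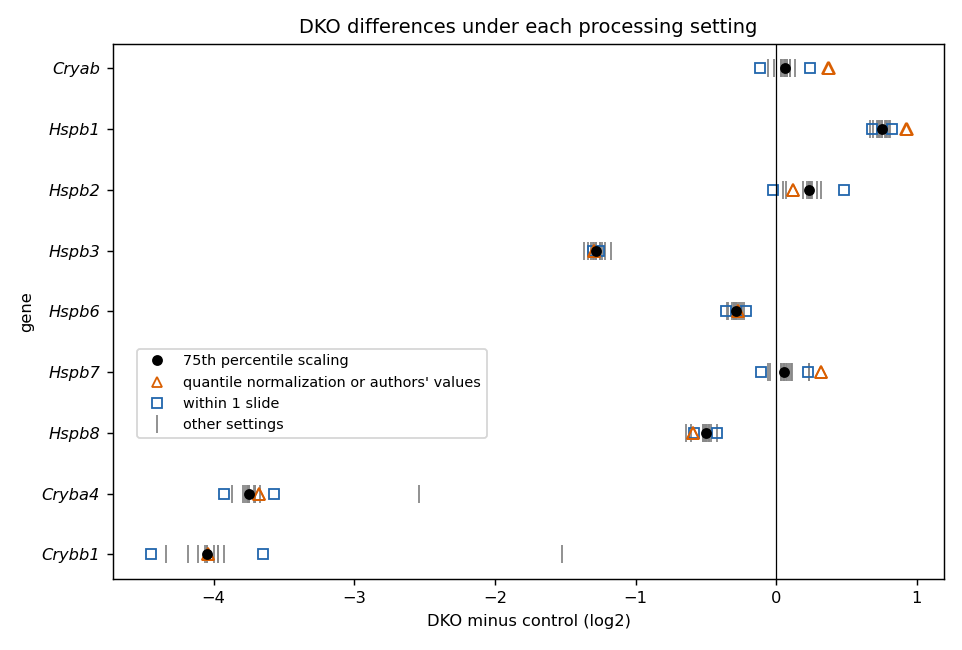
DKO minus control difference (log2) of the 9 genes under each way of processing the arrays. Filled circles are the values reported in the text, triangles quantile normalization or the authors' values, squares the fits within 1 slide, and ticks the other settings. Hspb1, Hspb3 and Hspb8 keep their side of 0, whereas Cryab, Hspb2 and Hspb7 cross it; Cryba4 and Crybb1 shrink to -2.54 and -1.52 under a background correction that adds an offset.

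Some members moved together within groups and others did not. After group means were removed, Cryab correlated with Hspb7 at r = 0.94, with Hspb6 at r = 0.83, and with Hspb2 at r = 0.79 across the 16 arrays, and Hspb7 correlated with Hspb6 at r = 0.81. Cryba4 and Crybb1 correlated at r = 0.80 within groups and r = 0.99 over all arrays, and Hspb3 with Cryba4 at r = 0.56 within groups and r = 0.96 over all. These values include DKO arrays with dim signal, where Cryba4 was well above background on 2 of 4 and Crybb1 on 0. Of the 36 pairs 15 had r over 0.5 within groups and 9 were negative, the lowest being Hspb3 with Hspb8 (-0.52), Hspb3 with Hspb2 (-0.37) and Hspb8 with Cryba4 (-0.36). All these values share array, scaling and sample quality, and the values over all arrays are set mainly by the gap between DKO and the other hearts. DKO replicate 3 was the highest DKO heart for Cryab, Hspb2, Hspb6, Hspb7 and Hspb8 and the lowest for Hspb3 and Cryba4. AKT1 KO replicate 1 was the lowest AKT1 KO heart for Cryab, Hspb1, Hspb2, Hspb6, Hspb7, Hspb8 and Cryba4.

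The genes whose levels over the 16 arrays were most like each member were named by Pearson r among 13724 others, as a description. For Cryba4 they were Tmx2 (r = 0.99), Crybb1 (0.99) and Itgb1bp2 (0.99), which encodes the muscle integrin-binding protein melusin and fell by 1.72 on the log2 scale in DKO hearts (adjusted p = 2.24e-08 by limma). For Crybb1, which was below background on the DKO arrays, they were Cryba4 (0.99), 2310002D06Rik (0.99) and Trim12a (0.99). For Hspb3 they were Ptges3l (0.98), Gpt2 (0.98) and Ccng1 (0.97). For Hspb8 they were Mlycd (0.97), which encodes malonyl-CoA decarboxylase, Slc25a34 (0.96) and G3bp2 (0.95). For Hspb1 they were Heatr1 (0.93), Mcoln1 (0.93) and Mfge8 (0.93), and for Hspb2 Smpx (0.96), Polr2l (0.96) and Psmd3 (0.95). The likeness was lower for Cryab (Dohh, 0.91), Hspb7 (Pcbp4, 0.91) and Hspb6 (Casc1, 0.89).

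The wider chaperone network was followed in 90 genes of 4 lists, of which 77 could be tested. In DKO hearts 40 of these passed limma's threshold, 19 higher and 21 lower, which is to be read against 45.6% of all genes; the count was 44 without DKO replicate 3 and 20 within slide 2. Among 32 chaperones and co-chaperones 5 rose, 5 fell and 22 did not pass, with a median difference of 0.08. Fkbp4, an HSP90 co-chaperone, had 1.64 ± 0.38 in DKO hearts and 3.19 ± 0.08 in control hearts (SD, n = 4 each), and fell by 1.54 on the log2 scale (SE 0.15, adjusted p = 1.79e-06). Hspd1, the mitochondrial HSP60, fell by 0.67 (SE 0.08, adjusted p = 8.53e-06), while Hsp90aa1, the inducible HSP90, rose by 0.85 (SE 0.11, adjusted p = 2.13e-05) and Dnajb6, an HSP40 of the Z-disc, by 0.60 (SE 0.10, adjusted p = 0.000165). The other genes counted here were named after their values were seen: Ptges3 (0.44), Hspa1a (1.64) and Hspa1b (1.53) rose, and the myosin chaperones Smyd1 (-0.61) and Unc45b (-0.40) and the adaptor Cacybp (-0.26) fell. The stress-inducible HSP70 genes Hspa1a and Hspa1b are near-identical copies whose probes may share signal. The difference of Smyd1 was -1.07 on another of its probes. Without DKO replicate 4 the Hspa1a and Hspa1b differences were 1.04 and 0.91, and with only DKO and control hearts in the fit neither passed (adjusted p = 0.0581 for Hspa1a and 0.0688 for Hspa1b). Each of these 6 calls was lost within at least 1 slide, and that of Cacybp (adjusted p = 0.044) also with the replicate number as a block (0.0556) and without DKO replicate 1, 2 or 3, AKT1 KO replicate 4, AKT2 KO replicate 1, 3 or 4, or any control replicate (0.0503 to 0.104).

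Among 22 partners and clients of the small heat shock proteins 10 rose, 5 fell and 7 did not pass, with a median of 0.11. Of all genes 24.4% passed higher and 21.2% lower. Des, the intermediate filament desmin that CRYAB and HSPB1 bind, had 6.50 ± 0.36 in DKO hearts and 5.21 ± 0.05 in control hearts (SD, n = 4 each), a rise of 1.29 (SE 0.15, adjusted p = 1.26e-05 by limma). Ankrd1, a stress-responsive titin-binding protein, rose by 2.19 (SE 0.13, adjusted p = 2.76e-08). Of the autophagy genes in this list Sqstm1, which encodes the receptor p62, rose by 0.84 (SE 0.11, adjusted p = 2.67e-05) and Map1lc3a, an LC3 gene, fell by 0.83 (SE 0.10, adjusted p = 1.46e-05). Map1lc3b, another LC3 gene, rose by 0.42 (adjusted p = 0.00128), and Lamp2, a lysosomal membrane protein, by 0.26 (adjusted p = 0.00399), both named after their values were seen. Their calls were lost within slide 2 (0.0999 for Map1lc3b and 0.161 for Lamp2), and that of Lamp2 also within slide 1 (0.0707). The other genes of the list that fell, named after their values were seen, were Ttn (-0.41), Tpm1 (-0.32), Ywhag (-0.31) and Bag1 (-0.26). The Ttn call was lost within slide 1 (adjusted p = 0.0715) and slide 2 (0.0821), and that of Bag1 within slide 2 (0.368). The call of Tpm1 (adjusted p = 0.036) was lost when its probes were averaged (-0.02), under quantile normalization (-0.01), without DKO replicate 1 (0.0873), 2 (0.1) or 4 (0.057), and without control replicate 1 (0.0931), 3 (0.0542) or 4 (0.0845). The markers of cardiomyocytes and fibroblasts given above moved alongside these genes, and their part was not tested.

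Of 23 further crystallin and small heat shock protein genes 11 could be tested: 1 rose, 4 fell and 6 did not pass, with a median of -0.06. Crybg1 rose by 0.89 (SE 0.12, adjusted p = 3.42e-05 by limma). Its paralogue Crybg3 fell by 0.86 (SE 0.14, adjusted p = 0.000257), or by 0.33 when its probes were averaged. Crybg2 was also lower (-1.47, SE 0.38, adjusted p = 0.00591), but its probe lay well above background on only 1 of 4 DKO arrays, against 4 of 4 control arrays, and under normexp background correction the difference was -0.72. Cryz, a quinone reductase that serves as a lens crystallin in guinea pigs, fell by 0.53 (SE 0.09, adjusted p = 0.000317), a call lost within slide 2 (0.0507). Also lower was Hspb9 (-0.60, adjusted p = 0.0194; named after its value was seen), whose call was lost without DKO replicate 1 (0.0518) or 2 (0.0637) and without control replicate 3 (0.0589) or 4 (0.0583). Of 12 kinases that act on the small heat shock proteins or upstream of them 3 rose, 7 fell and 2 did not pass, with a median of -0.57. Both these counts are to be read against 24.4% of all genes higher and 21.2% lower. Of the 2 that did not pass, 1 was lower and Mapkapk2, named after its value was seen, was higher (0.22, adjusted p = 0.0598 by limma). Mapkapk2 passed with array weights (0.003), under normexp (0.0401) and without DKO replicate 3 (0.0201) or AKT1 KO replicate 1 (0.0196) or 2 (0.0494). Mapk14, the p38 alpha kinase of the route to HSPB1 phosphorylation, fell by 0.64 (SE 0.10, adjusted p = 0.000171), and its activator Map2k6 fell by 0.97 (SE 0.13, adjusted p = 3.11e-05). Mapkapk5 fell by 0.81 (SE 0.13, adjusted p = 0.000175), and Prkaca, the catalytic subunit of the kinase that acts on HSPB6, by 0.64 (SE 0.08, adjusted p = 1.35e-05). The kinases that rose, named after their values were seen, were Prkg1 (0.70), Mapk12 (0.26) and Map2k3 (0.46, adjusted p = 0.0318), the last not without control replicate 2 (0.0678), 3 (0.06) or 4 (0.0628). Within slide 1 the Prkg1 difference was 0.43. The Map2k3 difference was 0.24 without DKO replicate 3, and within slide 1 it was 0.20 (adjusted p = 0.122). Map2k3 also did not pass with only DKO and control hearts in the fit (0.106), without a filter on dim probes (0.0667) or within slide 2 (0.101). The Mapk12 call was lost within slide 2 (adjusted p = 0.185).

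**Figure D5:**
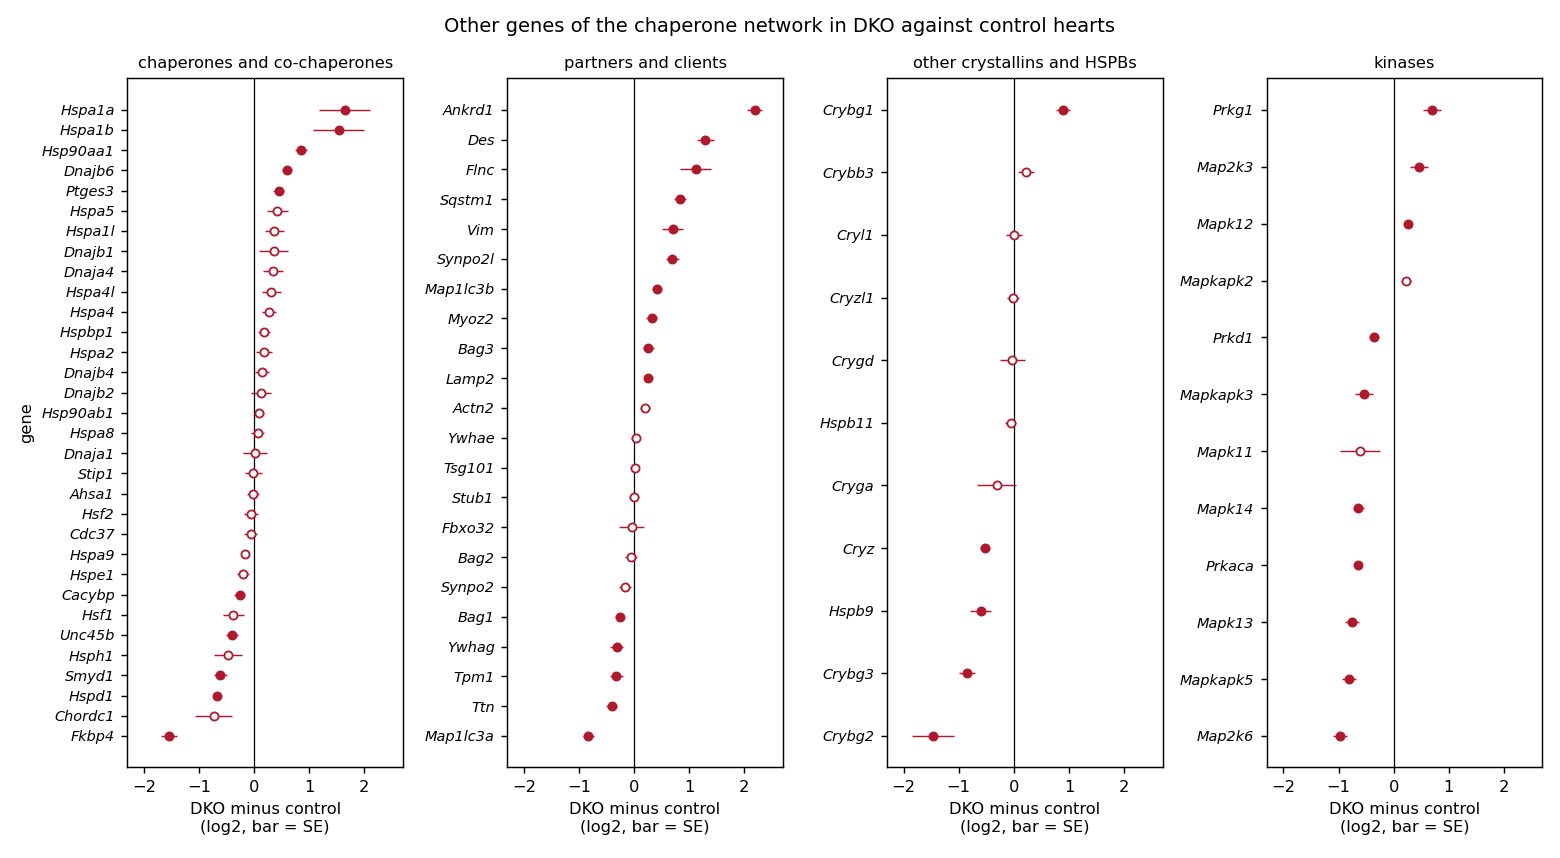
DKO minus control difference (log2, bar = SE) of the 77 tested genes of the 4 lists, with filled points for genes past limma's threshold (adjusted p under 0.05) and open points for the rest. Chaperones spread on both sides of 0, from Fkbp4 at -1.54 upward, and most of the 12 kinases lie below 0.

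In the single knockouts few of the 77 genes passed. In AKT1 KO hearts Ankrd1 rose by 0.72 (SE 0.13, adjusted p = 0.0175 by limma), with 6.86 ± 0.18 in AKT1 KO hearts and 6.15 ± 0.16 in control hearts (SD, n = 4 each). The Ankrd1 call was lost without AKT1 KO replicate 4 (adjusted p = 0.0762) and without control replicate 1 (0.0751), 2 (0.0629) or 4 (0.0595). Hspa1l, an HSP70 best known from testis, fell by 0.82 (SE 0.17, adjusted p = 0.0379; 0.0696 with slide and row as a block). The Hspa1l call was lost without AKT1 KO replicate 1 (adjusted p = 0.0948) or 4 (0.114), without any control replicate (0.0876 to 0.133), without AKT2 KO replicate 2 (0.0518) or 3 (0.0549), and without DKO replicate 2 (0.0532). In AKT2 KO hearts 0 of 77 passed, against 0.131% of all genes, and 1 (Crybg1) did so without DKO replicate 3. Hspa1l had a DKO minus control difference of 0.37 (adjusted p = 0.0922), which passed with the replicate number as a block (adjusted p = 0.0358) and without DKO replicate 1 (0.0479).

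The nearest tested genes on either side of the members are 14 genes outside the set, and in DKO hearts 3 of them rose and 5 fell, against 45.6% of all genes past the threshold; 0 passed in AKT1 KO or AKT2 KO hearts. Tpst2, 7.1 kb from Crybb1, had a DKO minus control difference of -0.04 (SE 0.16, adjusted p = 0.869 by limma), and passed only with array weights (0.0261). On the other side of the Cryba4 and Crybb1 pair the nearest tested gene, Gm36149, lies 752.4 kb away and fell by 1.72 (SE 0.33, adjusted p = 0.000769), a call lost within slide 2 (0.0527). Next to Hspb1, Mdh2, the mitochondrial malate dehydrogenase, fell by 0.60 (SE 0.08, adjusted p = 4.93e-05; by 0.33 under quantile normalization), the opposite direction to Hspb1. Beside Hspb3, Snx18 (0.14, adjusted p = 0.172) and Arl15 (0.02, adjusted p = 0.847) did not pass. The gene 2310030G06Rik, whose span touches that of Cryab, rose by 0.68 (SE 0.18, adjusted p = 0.00634; 0.138 within slide 2), and its difference was 0.45 without DKO replicate 3. Lin37, next to Hspb6, rose by 0.24 (SE 0.06, adjusted p = 0.00669), a call lost within either slide (0.0581 and 0.257). Srrm4 fell by 1.77 next to Hspb8 (SE 0.51, adjusted p = 0.0106). The Srrm4 difference was -1.05 without DKO replicate 3, and the call was lost with only DKO and control hearts in the fit (0.0596) and within slide 1 (-0.80, adjusted p = 0.119). Prkab1, on the other side of Hspb8, fell by 0.33 (SE 0.11, adjusted p = 0.0255), and this Prkab1 call was lost without DKO replicate 4 (0.0718) or control replicate 1 (0.0522) or 2 (0.0572). It was also lost without a filter on dim probes (0.0587) and within slide 1 (0.151) or 2 (0.0978). Ywhag, on the other side of Hspb1, fell by 0.31 (SE 0.12, adjusted p = 0.0419; 0.0593 with the replicate number as a block). The Ywhag difference was -0.50 within slide 1 and -0.13 within slide 2, where it did not pass (0.691). The Ywhag call was also lost without control replicate 1, 2 or 4, DKO replicate 1, 2 or 4, any of the AKT2 KO hearts, or AKT1 KO replicate 3 (0.0501 to 0.115).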

How the data were processed

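RNA (100 ng) from 16 heart apices was labelled with 1 dye, per the labels' protocols. Per the file headers, the scanner files come from Agilent Feature Extraction 12.0.3.1 and hold background-subtracted intensity values with detection flags. The deposited table holds log2 values; each array's values matched quantile-normalized log2 intensities centred on each probe's median (r = 0.9999 to 1, with higher values for more signal), with array medians of -0.0245 to 0.0134. How the authors made it is not given in the sources used here, and 0 of its sample columns were left unused.

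The values reported are log2 intensity minus the array's 75th percentile (492.1 to 809.4). Repeated spots were averaged, 118 probes with outlier flags dropped, and probes kept if 1 or more groups had them well above background throughout (4 arrays); the array number limits precision. Accessions were matched to RefSeq (GRCm38.p6), which named 32994 of 56605 probes (58.29%), and the brightest kept probe stood for a gene. Group means of all 16 arrays were estimated in a single limma model (limma 3.58.1, R 4.3.3, 12 residual and 2.54 prior degrees of freedom), with Benjamini-Hochberg adjustment over 13725 genes and a threshold of 0.05. The fit was checked on simulated data with equal spread in all groups and independent arrays. That check does not cover the unequal group spreads or the shared slide and row deviations of these arrays. Members, gene lists, markers and tests were chosen with earlier results of these data known. Named outside the members were, of each list, up to 4 called genes with the smallest adjusted p and any called in a single knockout, 5 fixed genes (Hsf1, Bag3, Hspa8, Stub1, Des), nearest neighbours and the 3 most alike genes; other genes were named after their values were seen, as stated beside them. A gene that this rule names is not reported here.

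The 2 slides held 2 arrays of each group each, and each group lay in 1 column of the slides, so group and column cannot be told apart. Deviations of same-numbered DKO and control hearts (r = 0.14 to 0.316) and AKT2 KO and control hearts (0.141 to 0.365) went together in every pair, which lie on the same slide and row. For AKT1 KO and control hearts they did not by number (-0.217 to 0.379) but did by slide and row (0.13 to 0.379). Alternatives covered background correction, scaling, the authors' values, filters, probe choice, weights, blocks, single slides and leaving out each array. For genes outside the members, the settings named as losing a call are not always all that did.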

Additional observations from a re-analysis of the deposited data

Results flagged for a closer look

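Among 44 combinations of probe and group, 4 had 1 heart far from the other 3, where about 2.2 would be by chance. The second Hspb7 probe read 6.81 in DKO replicate 3 (5.71 to 5.84 in the other DKO hearts) and 5.27 in AKT1 KO replicate 1 (5.64 to 5.71 in the others). Hspb2 read 4.88 in control replicate 3, with 5.02 to 5.04 in the other control hearts. Crybb1 read -5.3 in DKO replicate 4, with -6.54 to -6.41 in the others, all below background.

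In 3 cases every heart of a pair of groups lay on opposite sides of the control mean; since the genes were chosen on these arrays, the values are descriptions. Hspb1 lay above it in DKO and below it in AKT2 KO hearts (DKO minus AKT2 KO 1.04, SE 0.12). Hspb3 lay below it in DKO and above it in AKT1 KO hearts (DKO minus AKT1 KO -1.44, SE 0.12), and above it in AKT1 KO and below it in AKT2 KO hearts (AKT1 KO minus AKT2 KO 0.37, a difference that was not tested).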

How the results depend on the processing

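Over 31 alternatives, 0 of the 9 members passed in AKT1 KO or AKT2 KO hearts under any. In DKO hearts the count of members stayed between 3 and 7, at 3 under the stricter filter (5 as reported), and was 5 with the replicate block. Hspb1 (differences of 0.66 to 0.93) and Hspb3 (-1.36 to -1.18) passed under all 31, and Hspb8 (-0.64 to -0.42) under 30. The genes were chosen on these same arrays, so these passes describe the effect of processing only and lend the differences no support. For Cryab, Hspb2 and Hspb7 the sign changed between settings; the cause was not tested. The count of list genes in DKO hearts (40) was 20 within slide 2 and 41 with the replicate block, which kept 38 of the 40 and changed no other call named here besides Hspa1l, Cacybp and Ywhag. The count of all genes in DKO hearts (6257) was 2464 within slide 2 and 5648 within slide 1, which hold 8 arrays each. For the list genes the count within slide 1 was 36. Why the 2 slides differ was not tested.

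In AKT1 KO hearts the list count (2) was 1 under normexp, quantile normalization, the authors' values and the slide and row block, 0 without a filter and within slide 1 or 2, and 4 with array weights. The count of all genes (109) was 56 without a filter, 822 with array weights, 182 with only the groups compared, 14 within slide 1 and 4 within slide 2. In AKT2 KO hearts the list count (0) was 1 with array weights, and the count of all genes (18) was 93 with array weights, 42 with only the groups compared, 11 within slide 1 and 3 within slide 2. Leaving out 1 array at a time gave 5 to 6 members, 35 to 44 list genes and 5276 to 7020 genes in DKO hearts, 0 to 3 list genes and 54 to 291 genes in AKT1 KO hearts, and 0 to 1 list genes and 14 to 37 genes in AKT2 KO hearts. The highest of these for the single knockouts came without DKO replicate 3. Dim signal limits Crybb1, below background in DKO hearts, and Cryba4, above it on 2 of 4 DKO arrays.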
